A study of Homo sapiens with 4 samples.

Results

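A set of 10 genes that carry, build, or trim heparan sulfate was taken by name and followed in TPC1 cells between 6 h and 24 h of RET inhibition. They are the 4 syndecans SDC1, SDC2, SDC3, and SDC4, the glypican GPC1, the sulfotransferases HS2ST1, HS6ST1, and NDST1, and the sulfatases SULF1 and SULF2, 10 of the 20372 genes in the deposited count table. The TPC1 line was established from a human papillary thyroid carcinoma and carries the CCDC6-RET rearrangement, and BLU6864 is a selective RET inhibitor. The groups analyzed here were TPC1 cells after 6 h of BLU6864 and TPC1 cells after 24 h of BLU6864, with 2 libraries each, and both were cultured in the same serum-containing medium. The labels give a dose of 100 µM for both groups, whereas the methods give 100 nM, and the titles of the 24 h libraries add that they were re-analyzed. The titles of the 6 h libraries do not, so whatever that label marks cannot be told apart from time. Vehicle libraries were not analyzed here, so hours of inhibition and hours in culture cannot be told apart. The sources do not say whether the libraries of a group came from separate cultures, so the P values below measure only the spread between these libraries.

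Heparan sulfate is a long sugar chain that is attached to core proteins and then sulfated in the Golgi. Syndecans are core proteins that span the membrane, whereas glypicans are tied to it by a lipid anchor. The sulfated stretches of the chain bind FGFs and many other growth factors, and an FGF signals efficiently when heparan sulfate holds it together with its receptor. NDST enzymes begin the modification by replacing acetyl groups with sulfate, HS2ST1 and HS6ST enzymes add sulfate at further positions of the sugars, and the SULF enzymes remove 6-O-sulfate outside the cell.

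Total counts were between 23917056 and 27457040 per library. The cell line was checked against markers of its own and of other cell types. Of 8 thyroid follicular cell markers, 4 had more than 3 counts in all 4 libraries, led by the transcription factor PAX8 with 19124 to 22978 counts, but TSHR and NKX2-1 were at 0 in every library. Of 5 epithelial markers, 3 had more than 3 counts in all libraries, and the list summed to between 97.4 and 100.4 TPM at 24 h and between 87.2 and 96.9 TPM at 6 h. TPM is the count per kilobase of exon, scaled to the same total in each library. The keratins KRT8 (1720 to 1811 counts) and KRT18 (856 to 1185) were abundant, whereas EPCAM had 1 to 11 counts and CDH1, which encodes E-cadherin, had 1 to 8. KRT19 had 100 and 125 counts at 6 h and 37 and 40 at 24 h, and its log2 fold change was -1.59 (adjusted P = 9.57e-08 by edgeR). The white blood cell marker PTPRC had at most 5 counts. White blood cell markers over 3 counts in all libraries were 2 of 8, and their list summed to between 193 and 195 TPM at 24 h and between 319 and 350 TPM at 6 h. For fibroblasts, 3 of 5 markers passed 3 counts, COL1A2 was at 0, and the list summed to between 7.57 and 8.09 TPM at 24 h and between 13.3 and 13.6 at 6 h. For endothelial cells, 1 of 3 markers passed, with sums of at most 1.14 TPM at 24 h and between 11.8 and 13.1 at 6 h. The sums of the last 3 lists were lower at 24 h, but their genes did not all move that way. The white blood cell sum was mostly CD68, also a lysosomal protein of other cells, with means of 330 TPM at 6 h and 186 TPM at 24 h, and the endothelial sum was mostly KDR, with 12.2 and 0.791 TPM. CD14 and the fibroblast marker LUM were higher at 24 h, with log2 fold changes of 0.95 and 0.75. The part of these markers, and of the epithelial ones, in the results below was not tested.

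The largest changes among the genes were those of SDC1, which was lower at 24 h, and of SDC2, HS6ST1, and SDC4, which were higher. For 3 of these the sequence before the transcription start is shown. The sequences are from RefSeq, build GRCh38.p14, and cover the 250 bases before the annotated start, of which the outermost was taken for SDC1. Capitals mark the GC box GGGCGG on either strand, and matches may overlap each other.
SDC1 upstream window (chr2:20225476-20225725, minus strand): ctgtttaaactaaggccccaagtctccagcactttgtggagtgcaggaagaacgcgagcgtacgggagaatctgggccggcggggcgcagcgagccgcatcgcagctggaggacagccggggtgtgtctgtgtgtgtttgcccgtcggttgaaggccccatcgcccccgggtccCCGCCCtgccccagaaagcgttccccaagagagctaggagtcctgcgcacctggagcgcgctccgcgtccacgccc
SDC4 upstream window (chr20:45348425-45348674, minus strand): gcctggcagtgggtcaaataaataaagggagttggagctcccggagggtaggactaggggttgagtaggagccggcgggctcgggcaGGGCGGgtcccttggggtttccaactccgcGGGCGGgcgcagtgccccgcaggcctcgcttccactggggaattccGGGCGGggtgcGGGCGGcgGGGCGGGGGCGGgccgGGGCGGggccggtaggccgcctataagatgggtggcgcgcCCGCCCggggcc
HS6ST1 upstream window (chr2:128318869-128319118, minus strand): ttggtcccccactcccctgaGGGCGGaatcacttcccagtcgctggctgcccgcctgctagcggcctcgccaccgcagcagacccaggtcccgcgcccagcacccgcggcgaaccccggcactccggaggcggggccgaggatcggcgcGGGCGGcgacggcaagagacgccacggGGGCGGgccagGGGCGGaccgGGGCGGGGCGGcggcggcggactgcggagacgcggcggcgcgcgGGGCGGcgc

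The GC box occurred 1 time in the SDC1 window, 8 times in that of SDC4, and 7 times in that of HS6ST1, and 42.6% of all 35116 RefSeq windows of this length hold at least 1. The GC content was 66.4%, 73.6%, and 80.4%, against a median of 58.0% over all windows. For SDC1 it depends on the start taken, since the window before the other annotated start had 75.2% GC, with 1 GC box. The CCAAT box, the TATA box TATAAA, and the AP-1 site TGANTCA were not found in the 3 windows shown. They are held by 32.0%, 10.7%, and 6.57% of all windows. The window of NDST1, also higher at 24 h, had 1 GC box, 1 AP-1 site, and 60.4% GC. GPC1 and HS2ST1, lower at 24 h, had 4 GC boxes each, and SDC3, higher at 24 h, had 5. Among these genes, the number of GC boxes thus did not separate those that rose from those that fell. SDC3, GPC1, and HS2ST1 changed by less than 0.5 on the log2 scale, and no window was at hand for SDC2. The matches describe the letters only, and binding was not measured.

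Gene counts were scaled by the TMM method, and 24 h was compared with 6 h by edgeR's quasi-likelihood test over 12876 genes with sufficient counts. A gene was called higher where its log2 fold change exceeded 0.5 at an unadjusted P below 0.01, and lower where it was below -0.5 at such a P. Of the 10 genes, 9 had enough counts to be tested, and SULF1 did not. SDC2, SDC4, HS6ST1, and NDST1 were called higher at 24 h, and SDC1 was called lower. This is 4 of 9 higher, where 17.4% of all genes tested were called higher, and 1 of 9 lower, where 17.7% of all genes were. The remaining 4, SDC3, GPC1, HS2ST1, and SULF2, passed neither cutoff pair. With a Benjamini-Hochberg adjusted P under 0.05 and no cutoff on size, 5 were higher and 3 lower, against 33.0% and 32.6% of all genes. The 24 h and 6 h libraries did not overlap in 8 of the 9, which is close to the background, since 81.8% of all genes were separated in this way. The median log2 fold change of the 9 was 0.35, and that of all genes tested was 0.0029. In RNA from whole cultures, fewer cells with a transcript and less transcript per cell cannot be told apart.

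**Figure D1:**
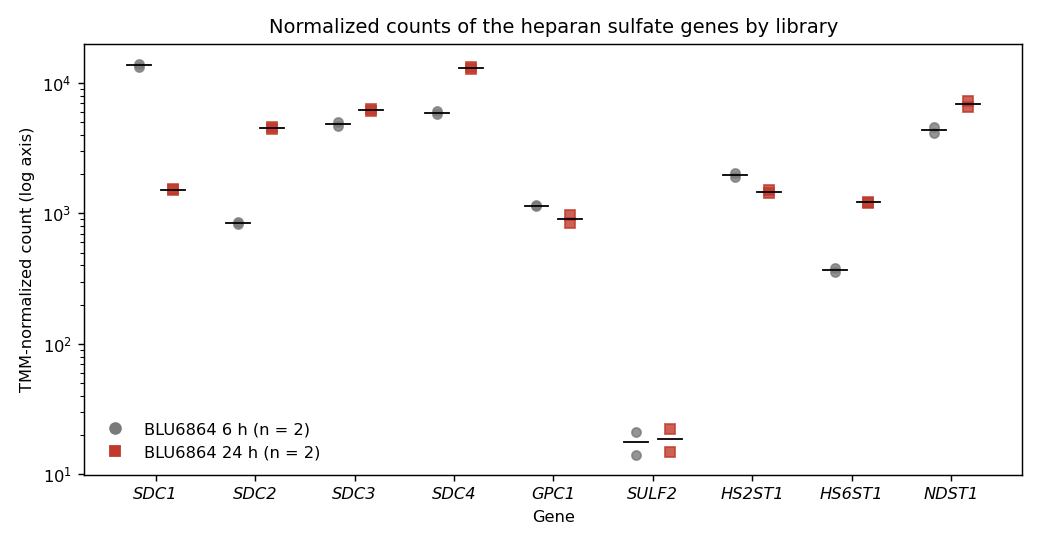
TMM-normalized counts on a log axis for each gene in the 2 libraries at 6 h (circles) and the 2 at 24 h (squares), with a line at each group mean. SDC1 sits at a mean of 13602 at 6 h and 1522 at 24 h, SDC2 moves the other way, and the groups of SULF2 overlap. SULF1, with at most 1 count in a library, is left out.

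SDC1 (ENSG00000115884) lies on chromosome 2 from 20400558 to 20425194 in the hg19 build of the table, and encodes the syndecan typical of epithelial cells. It had 14063 and 13141 normalized counts at 6 h but 1540 and 1503 at 24 h. Both 24 h libraries were far below both 6 h libraries, and the libraries of a time point lay close together. SDC1 fell by 3.16 on the log2 scale (standard error 0.0807), which is 8.94-fold lower at 24 h, with an adjusted P of 3.80e-22 from edgeR. Its absolute change was larger than that of 97.9% of all genes tested.

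SDC2 (ENSG00000169439), on chromosome 8 from 97505579 to 97624000, encodes a syndecan best known from cells of mesenchymal origin. It had 855 and 827 normalized counts at 6 h and 4455 and 4587 at 24 h. The groups did not overlap. The log2 fold change was 2.43 (standard error 0.0752), a 5.38-fold rise with an edgeR adjusted P of 2.81e-20, and its absolute change was larger than that of 96.3% of all genes tested. The ratio of SDC1 to SDC2 counts within a library does not depend on scaling. On the log2 scale it was 4.04 and 3.99 at 6 h but -1.53 and -1.61 at 24 h, a difference of -5.59. Per length, SDC1 had 604 and 540 TPM at 6 h, above the 32.5 and 30.1 TPM of SDC2. At 24 h SDC1 had 65.9 and 63.4 TPM, below the 169 and 171 TPM of SDC2.

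SDC4 (ENSG00000124145), on chromosome 20 from 43953928 to 43977064, encodes a widely expressed syndecan of focal adhesions. Its normalized counts were 6061 and 5795 at 6 h and 12825 and 13316 at 24 h. The groups did not overlap, and the log2 fold change was 1.14 (adjusted P = 3.77e-13 by edgeR, standard error 0.0750). The log2 ratio of SDC4 to SDC1 counts went from -1.21 and -1.18 at 6 h to 3.06 and 3.15 at 24 h. The log2 ratio of SDC4 to SDC2 was 2.83 and 2.81 at 6 h and 1.53 and 1.54 at 24 h.

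SDC3 (ENSG00000162512), on chromosome 1 from 31342314 to 31381608, encodes the syndecan known mainly from the nervous system. Its normalized counts were 5038 and 4678 at 6 h and 6066 and 6322 at 24 h. Here too the groups did not overlap, but the difference was small. The log2 fold change of 0.35 (standard error 0.0724) had an edgeR adjusted P of 0.000137 and did not reach the cutoff of 0.5.

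Set beside each other per length, the syndecans changed places while their summed level moved little. The sum of the 4 was 1108 and 998 TPM at 6 h against 1125 and 1147 TPM at 24 h, so the highest 6 h and the lowest 24 h library were close. At 6 h, SDC1 made up 54.3% ± 0.302 of that sum (SD, n = 2), SDC4 32.8% ± 0.346, SDC3 9.92% ± 0.0997, and SDC2 2.97% ± 0.0561. At 24 h, SDC4 made up 67.5% ± 0.207, SDC2 14.9% ± 0.0429, SDC3 11.8% ± 0.0665, and SDC1 5.69% ± 0.231. SDC1 was thus the most abundant syndecan transcript at 6 h and the least abundant at 24 h, and SDC2 went from the least abundant to a place below SDC4 only. The SD between libraries of a time point was at most 0.346 percentage points for each share. With 2 libraries against 2, an exact permutation test of these shares cannot give a P below 0.333, so none was run.

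**Figure D2:**
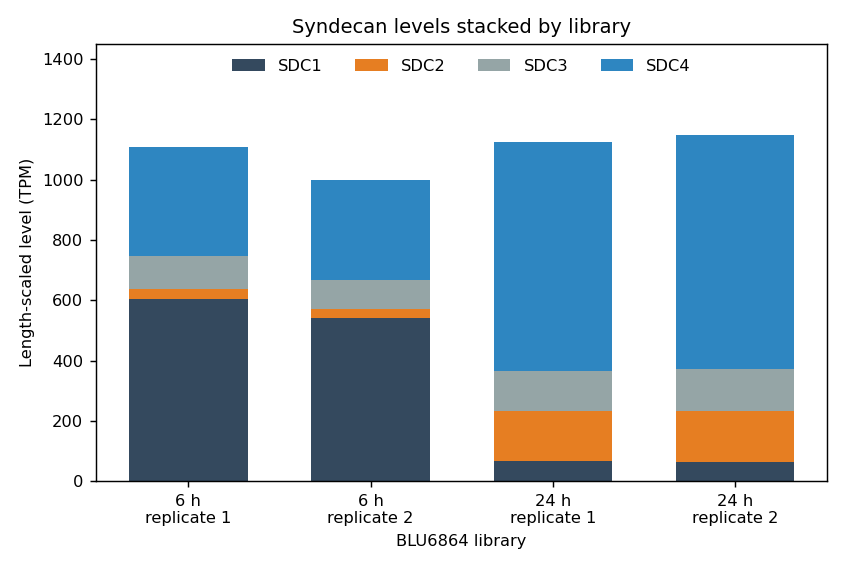
Length-scaled levels (TPM) of the 4 syndecans stacked in each library, with the 6 h libraries on the left and the 24 h libraries on the right. Bar heights lie between 998 and 1147 TPM, while the SDC1 segment shrinks from over 540 to under 66 TPM and the SDC4 and SDC2 segments grow.

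GPC1 (ENSG00000063660), on chromosome 2 from 241375088 to 241407493, encodes a glypican that can carry FGF2 as a coreceptor. It had 1137 and 1157 normalized counts at 6 h and 843 and 970 at 24 h. Both 24 h libraries were below both 6 h libraries, but they differed from each other by more than the 6 h libraries did. The log2 fold change of -0.34 (adjusted P = 0.000663 by edgeR, standard error 0.0809) did not reach the cutoff on size. A neighboring gene, AC110619.2, overlaps GPC1 in the table and had 4 to 9 counts. The other glypicans were scarce. GPC3 and GPC4 had 0 counts in every library, GPC5 had at most 2, GPC2 between 14 and 23, and GPC6 between 68 and 93.

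The sulfotransferases moved in different directions. HS6ST1 (ENSG00000136720), on chromosome 2 from 128994290 to 129076151, places sulfate at the 6-O position of glucosamine. It had 382 and 358 normalized counts at 6 h and 1225 and 1201 at 24 h. The groups were far apart, and the log2 fold change was 1.71 (standard error 0.0862), a 3.28-fold rise with an edgeR adjusted P of 1.24e-15. Its paralogs were nearly silent, with 0 counts of HS6ST2 in every library and between 0 and 6 of HS6ST3. A count of 0 allows up to 3 counts in a library, as counting error alone.

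HS2ST1 (ENSG00000153936), on chromosome 1 from 87380331 to 87602334, sulfates the 2-O position of the uronic acid. It had 2058 and 1901 normalized counts at 6 h and 1441 and 1501 at 24 h. The groups did not overlap, but the log2 fold change of -0.43 (adjusted P = 9.74e-06 by edgeR, standard error 0.0719) stayed short of the cutoff. An overlapping gene, RP5-1052I5.2, had 3 to 14 counts. The log2 ratio of HS6ST1 to HS2ST1 counts was -2.43 and -2.41 at 6 h and -0.23 and -0.32 at 24 h, a difference of 2.14. The groups did not overlap in this ratio.

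NDST1 (ENSG00000070614), on chromosome 5 from 149865381 to 149937773, is a deacetylase and sulfotransferase on which the later sulfation steps depend. Its normalized counts were 4141 and 4574 at 6 h and 6549 and 7299 at 24 h. The groups did not overlap. The log2 fold change was 0.67 (adjusted P = 2.18e-08 by edgeR, standard error 0.0767). The counts of its paralogs were between 8 and 30 for NDST2, between 0 and 12 for NDST3, and at most 1 for NDST4. The log2 ratio of NDST1 to NDST2 rests on these few counts. It was 8.91 and 7.31 at 6 h and 8.16 and 8.55 at 24 h, and the groups overlapped.

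The extracellular sulfatases were at or near the limit of detection. SULF1 (ENSG00000137573), on chromosome 8 from 70378859 to 70573150, had 0 counts in 3 libraries and 1 count in the remaining 6 h library. No fold change can be given. SULF2 (ENSG00000196562), on chromosome 20 from 46285092 to 46415360, had 13 and 22 raw counts at 6 h and 15 and 23 at 24 h. The groups overlapped, and a difference was not detectable at this depth (log2 fold change 0.07, standard error 0.369, adjusted P = 0.869 by edgeR). SULF2 overlaps NCOA3 in the table, which had 2889 to 3553 counts. The strand setting of the counting is not given in the sources used here, so the few SULF2 counts are uncertain.

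**Figure D3:**
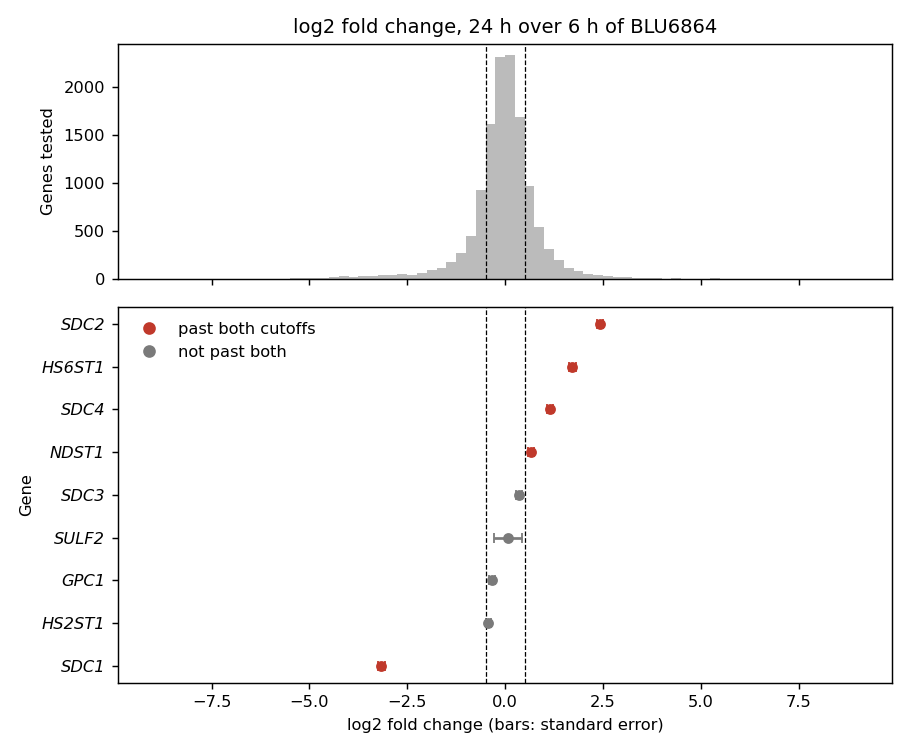
The upper panel is a histogram of the log2 fold changes (24 h over 6 h) of all 12876 genes tested, and the lower panel gives the 9 tested heparan sulfate genes with their standard errors, with dashed lines at -0.5 and 0.5. SDC1 at -3.16 and SDC2 at 2.43 lie in the tails of the histogram, and the wide bar of SULF2 spans 0.

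In order of length-scaled level at 6 h, SDC1 (572 ± 45.5 TPM, SD, n = 2) was followed by SDC4 (345 ± 21.8), SDC3 (105 ± 8.77), NDST1 (69.5 ± 2.696), HS2ST1 (35.5 ± 3.11), SDC2 (31.3 ± 1.72), GPC1 (26.7 ± 0.509), HS6ST1 (11.3 ± 0.882), and SULF2 (0.381 ± 0.0968). HS2ST1 and SDC2 differed by little more than their spread, since the lowest HS2ST1 value of 33.3 TPM lay beside the highest SDC2 value of 32.5 TPM. At 24 h the order was SDC4 (767 ± 12.6 TPM), SDC2 (170 ± 1.78), SDC3 (134 ± 2.55), NDST1 (112 ± 7.42), SDC1 (64.6 ± 1.76), HS6ST1 (37.4 ± 0.916), HS2ST1 (26.6 ± 0.497), GPC1 (21.3 ± 1.90), and SULF2 (0.410 ± 0.111). HS6ST1 was below both HS2ST1 and GPC1 at 6 h and above both at 24 h. With the longest transcript as the length, GPC1 stood above HS2ST1 and SDC2 at 6 h and above HS2ST1 at 24 h, and the other places were the same.

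The remaining genes of heparan sulfate metabolism were described by lists of their roles, without a test of the lists. The calls in each list are to be read beside the 17.4% of all genes called higher and the 17.7% called lower. Among 9 other core proteins, 6 were tested, with 2 called higher, 1 lower, and a median log2 fold change of 0.09. COL18A1, a basement membrane collagen that carries heparan sulfate, had a log2 fold change of 0.96 (adjusted P = 7.97e-11 by edgeR, standard error 0.0820). TGFBR3, the betaglycan coreceptor of TGF-beta, had one of -1.30 (adjusted P = 2.76e-13 by edgeR, standard error 0.0841). HSPG2, which encodes perlecan, had 3099 and 4334 raw counts at 6 h and 4301 and 7949 at 24 h. The log2 fold change of HSPG2, 0.68 (adjusted P = 0.000200 by edgeR), rested on the second 24 h library, because without that library it was 0.20 with an adjusted P of 0.102. With DESeq2 on all libraries, the adjusted P of HSPG2 was 0.202.

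The enzymes that start and extend the chain moved in both directions. Of 11, 9 were tested, and 2 were called higher and 4 lower, where 17.4% and 17.7% of all genes were. The median log2 fold change was -0.46. EXT1, a subunit of the polymerase that extends the chain, had raw counts of 6510 and 7022 at 6 h and 20813 and 20933 at 24 h, and a log2 fold change of 1.58 (adjusted P = 7.48e-16 by edgeR, standard error 0.0776). EXT2, the other subunit, had a log2 fold change of 0.23 and was not called. B3GALT6, which adds a galactose to the linker, rose with a log2 fold change of 1.002. EXTL2, EXTL3, and XYLT2, which act at the linker or the first steps of the chain, were called lower, with log2 fold changes of -1.32, -0.71, and -0.65.

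The other chain-modifying enzymes were mostly scarce, and 5 of 13 were tested. HS3ST1, a 3-O-sulfotransferase, was called higher with a log2 fold change of 0.81, and GLCE, the epimerase that makes iduronic acid, was called lower with one of -0.69. The list median was -0.04. The genes that supply the sulfate donor and the sugar precursors were mostly not called. Of 8 tested, 0 were called higher and 1 lower, the nucleotide sugar transporter SLC35D1, with a log2 fold change of -0.56 that was -0.45 without the second 24 h library. The log2 fold changes of PAPSS1 and PAPSS2, the enzymes that make the sulfate donor, were 0.02 and -0.07.

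Enzymes that break heparan sulfate down were called higher in 5 of 9 tested and lower in 0, with a median log2 fold change of 0.56. They act mostly in lysosomes. SGSH, the sulfamidase, had a log2 fold change of 1.09 (adjusted P = 3.35e-13 by edgeR, standard error 0.0714), and IDUA, the iduronidase, had 0.79. NAGLU and HGSNAT were also called higher, with 0.72 and 0.56. HPSE, the heparanase that cuts the chain at internal sites, had a log2 fold change of -0.47 and was not called, although it was -0.52 and called lower with scaling by library size alone, and likewise without the second 24 h library (-0.63) or the second 6 h library (-0.50).

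**Figure D4:**
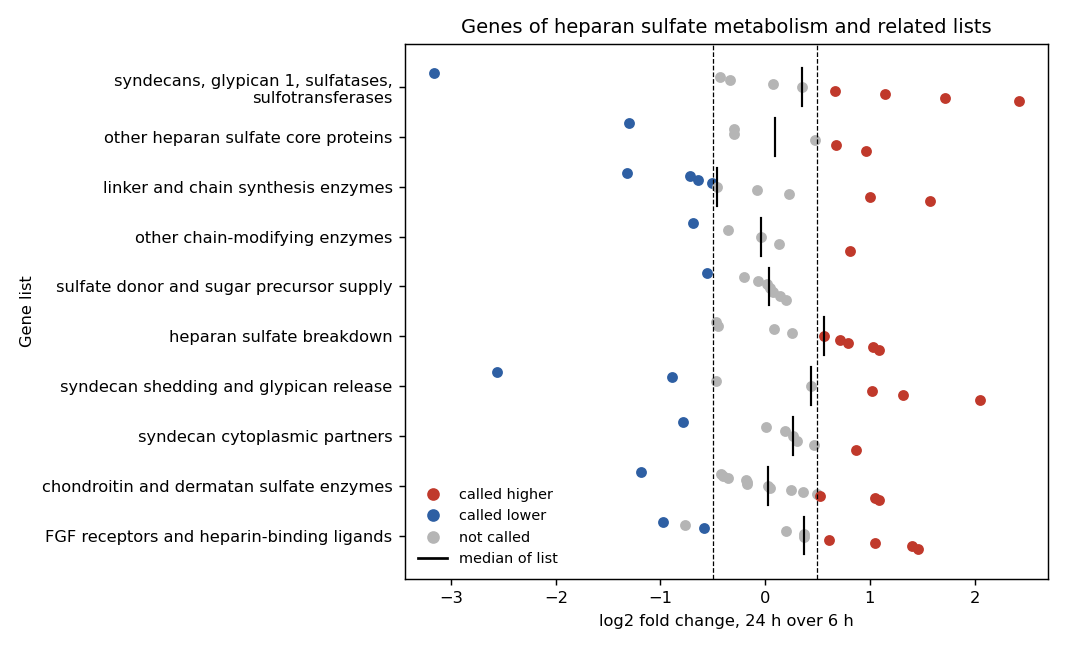
The log2 fold change (24 h over 6 h) of each tested gene by list, colored by whether it was called higher, lower, or neither, with the list median as a black line and dashed lines at -0.5 and 0.5. SDC1 at -3.16 has the largest absolute change shown. The 9 breakdown enzymes tested have 5 genes called higher and 0 lower, where 17.4% and 17.7% of all genes were.

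Among the partners in FGF signaling, FGFR1 and FGF2 had log2 fold changes of 1.40 and 1.46. The heparan sulfate genes went both ways in the same libraries. SDC2 had 2.43, HS6ST1 1.71, SDC4 1.14, NDST1 0.67, SDC3 0.35, and SULF2 0.07, whereas SDC1 had -3.16, HS2ST1 -0.43, and GPC1 -0.34. A relation between the 2 groups of genes was not tested. Of 12 FGF receptors and heparin-binding ligands, 10 were tested, with 4 called higher and 2 lower, where 17.4% and 17.7% of all genes were. FGFR3 was among those called lower, at -0.59. DESeq2 did not call FGFR3 (adjusted P = 0.0979). Nor was FGFR3 called without the second 24 h library (-0.45) or either 6 h library (-0.61 and -0.57).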

How the data were processed

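RNA from TPC1 cells treated with BLU6864 was sequenced in 4 libraries, 2 at each time. Reads were aligned by the authors with STAR (version 2.3 in the submitters' processing notes) to hg19, and raw counts per gene were deposited. The methods name a later version of STAR, and which was used is not settled here. The counting program is not given in the sources used here. The 4 columns of counts divided by a size factor and the 6 columns of the authors' DESeq2 comparison (mean, fold change, standard error, statistic, and P values) were not used.

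After filterByExpr and TMM scaling, the quasi-likelihood test of edgeR 4.0.16 (R 4.3.3) was run on the raw counts, with time as the single factor. The kept genes hold 99.97% of the counts. Standard errors were derived from the fold change and the F statistic. The cutoffs are those of the methods turned both ways. The common biological coefficient of variation was 0.0521. Same-time libraries exceeded counting error (chi-square over degrees of freedom, 7.65 at 24 h, 10.0 at 6 h) and were kept as separate replicates. TPM used the union of exons of GENCODE v44 (19460 genes found by Ensembl identifier). That annotation is for a later genome build than the counts, so its lengths may differ from those of the exons counted. No ratio of SULF1 to SULF2 was formed, because SULF1 was at 0. The RefSeq promoter windows used here covered 8 of the 10 genes, without SDC2 and SULF1, and motifs were searched on both strands. The procedure was tested on simulated data.

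The genes and lists were chosen with earlier results of these data known. All 10 genes are named. From each other list, up to 3 genes called in each direction with a mean normalized count of at least 50 were named by size of change, and a few more, such as paralogs, EXT2, PAPSS1, PAPSS2, HPSE, NAGLU, and HGSNAT, were chosen after their values were seen. A few genes of these lists are not reported here by name. Alternatives were DESeq2 1.42.0, other scalings and count filters, blocking on the replicate number, a cutoff on the adjusted P alone, each library left out in turn, and another gene length. Figures used matplotlib 3.10.9 (Python 3.11.15).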

Additional observations from a re-analysis of the deposited data

How the results depend on the processing

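No call among SDC1, SDC2, SDC3, SDC4, GPC1, SULF2, HS2ST1, HS6ST1, and NDST1 changed under DESeq2, other scalings, other count filters, the replicate block, or a library left out. Across these 10 fits the log2 fold change was between -3.21 and -3.11 for SDC1, 2.38 and 2.46 for SDC2, 1.10 and 1.18 for SDC4, 1.66 and 1.76 for HS6ST1, and 0.59 and 0.75 for NDST1. That of SULF2 was between -0.24 and 0.41, with its sign not fixed. The replicate numbers give no stated pairing, and the deviations of same-numbered libraries correlated at 0.0844. In the fit with the replicate block, 2283 genes were called higher and 2313 lower, and 4 and 1 of the heparan sulfate genes.

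With an adjusted P under 0.05 in place of the cutoffs, 4247 genes were higher and 4196 lower. The number lower became 3 among the heparan sulfate genes, 2 among other chain-modifying enzymes, 2 for breakdown, 5 for chondroitin sulfate enzymes, and 2 for precursor supply, where 1 was higher. The number higher became 4 for syndecan partners, 5 for chondroitin sulfate enzymes, and 7 for FGF receptors and ligands. DESeq2 called 1 other core protein higher and 1 FGF gene lower, without HSPG2 and FGFR3. Library size alone called 1 breakdown gene lower, HPSE, and with no count filter 2 other chain-modifying enzymes were higher, NDST3 added. With each library left out, the core proteins called higher numbered 1 to 3 (AGRN added without the first 24 h library), other chain-modifying enzymes higher 1 to 2, supply genes lower 0 to 1, breakdown genes lower 0 to 1, and FGF genes lower 1 to 2.

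With the longest transcript as the length, levels in TPM at 6 h and 24 h were 446 and 49.7 for SDC1, 27.5 and 147 for SDC2, 82.1 and 104 for SDC3, 245 and 538 for SDC4, 33.3 and 26.2 for GPC1, 31.6 and 23.4 for HS2ST1, 9.46 and 30.9 for HS6ST1, and 58.7 and 92.9 for NDST1. The syndecan sum was 801 and 839, and the SDC1 share 55.7% and 5.93%.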

Other observations

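Genes that act beside heparan sulfate were read in the same fit. Enzymes of chondroitin and dermatan sulfate, the sister chains that start from the same linker, moved in both directions. Of 16, 15 were tested, with 3 called higher and 1 lower, where 17.4% and 17.7% of all genes were, and the median log2 fold change was 0.03. At an adjusted P under 0.05, 5 were higher and 5 lower, against 33.0% and 32.6% of all genes. CHST15 and CHST3, which sulfate chondroitin, had log2 fold changes of 1.08 and 1.05 (edgeR adjusted P = 2.16e-12 and 3.26e-12), UST, which adds 2-O-sulfate, had 0.52, and CHPF, a polymerizing factor, had -1.19. UST was not called with library size alone (0.48) or without the first 24 h library (0.49).

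Proteases and enzymes that can release syndecans or glypicans moved in both directions. Of 7 tested, 3 were called higher and 2 lower, where 17.4% and 17.7% of all genes were. MMP2 had raw counts of 4656 and 4468 at 6 h and 18879 and 20447 at 24 h, and its log2 fold change was 2.06 (adjusted P = 1.69e-17 by edgeR, standard error 0.0850). MMP9, the related gelatinase, had 1196 and 1154 raw counts at 6 h and 186 and 225 at 24 h, and fell by 2.57 on the log2 scale. MMP7, known to cleave syndecan-1, and GPLD1, which cuts lipid anchors, had log2 fold changes of 1.32 and 1.02, and ADAM17, a sheddase, had -0.89. Of 7 genes for cytoplasmic partners of syndecans, PRKCA was called higher with 0.86 and TIAM1 lower with -0.79. SDCBP, which encodes the adaptor syntenin, had 15528 and 15577 raw counts at 6 h and 16369 and 16029 at 24 h, and its log2 fold change of 0.0091 was within its standard error of 0.0799. HBEGF, a heparin-binding ligand of EGFR, had a log2 fold change of -0.97, and MDK, which encodes the heparin-binding factor midkine, had one of 0.61.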
